A study of Danio rerio with 14 samples.

Results

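The long arm of zebrafish chromosome 4 was examined through the peaks of H2A.Z that the study placed on it. A peak was counted as a member when its row in the authors' deposited table lay on the assembled chr4 with a start at or beyond position 25000000, and no measured value was used to choose it. This gave 665 of the 29854 peaks in the table that sets 5-AzaC against DMSO, and 626 of the 28988 peaks in the table that sets TDCIPP against DMSO. The members were compared with the 480 and 452 peaks of chr4 below the boundary, and with the 23610 and 22857 peaks on the 24 other assembled chromosomes.

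H2A.Z is a variant of histone H2A that replaces it in some nucleosomes, often those beside gene start sites and at enhancers. In the early zebrafish embryo it is known to mark DNA that lacks cytosine methylation, so H2A.Z and DNA methylation occupy largely separate parts of the genome. The long arm of chromosome 4 is known as a repeat-rich, late-replicating and heterochromatic region, with few ordinary genes and large families of zinc finger genes, NLR immune genes and small structural RNA genes.

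H2A.Z was mapped by CUT&Tag, in which an antibody brings a transposase to its target, where sequencing adapters are inserted into nearby DNA. All libraries used here came from embryos of wild type AB/Tuebingen parents, kept in wells of around 50 embryos and harvested 6 hours post fertilization (hpf), with around 10000 cells per library and a polyclonal H2A.Z antibody. Embryos received 100 µM 5-AzaC, a cytidine analog that lowers DNA methylation, from the 1-cell stage (3 libraries), or 3.12 µM TDCIPP, an organophosphate flame retardant, from the 2-cell stage at 0.75 hpf (2 libraries), and controls received 0.1% DMSO (3 libraries). The other 6 of the 14 samples, with H2A.Z overexpression and DMSO or 5AzadC, were not analysed here.

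Each deposited table holds 1 log2 level per group and peak, a log2 change, a p-value and a false discovery rate (FDR), so no value per library, no spread between libraries and no depth per library could be given. Levels, changes and FDR values of single peaks below are those of the authors' deposited tables, while counts, medians and shares were computed from them. Peaks are not replicates of a treatment, so medians over peaks are descriptions. Both comparisons share the DMSO libraries, and all 81 members with identical coordinates in both tables carry the same DMSO level in each. In whole embryos, fewer cells carrying H2A.Z at a site and less H2A.Z per cell cannot be told apart.

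Coordinates are on GRCz11, the build that the submitters' processing notes name. No annotation of that build was used here, so no peak was assigned to a gene. The gene content of chromosome 4 as a whole can be given from RefSeq on another assembly, GRCz12tu, where that chromosome carried 13296 of 49597 annotated genes (26.8%). It held 3997 of 4113 rRNA genes (97.2%), 975 of 1283 small nuclear RNA genes (76.0%) and 5683 of 8452 tRNA genes (67.2%), against 1830 of 27039 protein-coding genes (6.77%). It also held 57 of 58 genes for miR-430, the microRNA family that clears maternal mRNAs when the zygotic genome starts to be read. Those 57 genes sat within 59 consecutive genes, and znf1059, named as a zinc finger gene, was among the neighbours. None of these genes was placed on the GRCz11 peaks.

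The arm carried fewer, weaker and narrower peaks than the rest of the assembled genome. Peak density was 12.5 per Mb on the arm in the 5-AzaC table, against 19.2 per Mb on chr4 below the boundary and 15.3 to 22.1 per Mb over the 24 other chromosomes. In the TDCIPP table the arm had 11.8 peaks per Mb, against 15.1 to 21.3 over the other chromosomes. The median distance from one peak to the next was 47.7 kb on the arm in the 5-AzaC table and 53.2 kb in the TDCIPP table, and no other chromosome exceeded 34.6 and 35.1 kb. The longest stretch of the arm without a peak ran for 1089 kb in the 5-AzaC table, from 45610510 to 46699952, and for 1232 kb in the TDCIPP table, from 45539099 to 46770644. In the 5-AzaC table a longer one, of 1256 kb, lay on chromosome 14. Densities and distances are over assembly coordinates. Unknown bases and sequence where reads cannot be placed were not subtracted, and a planned density over known bases was not computed. Median peak width was 672 bp on the arm and 791 bp on the other chromosomes in the 5-AzaC table, and 690 against 778 bp in the TDCIPP table.

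Under 5-AzaC most arm peaks had values below DMSO, with a less negative median than elsewhere, and a minority had values well above it. The median change on the arm was -0.42 on the log2 scale, with quartiles of -0.91 and 0.39. It was -0.61 on chr4 below the boundary and -0.69 on the other chromosomes, whose quartiles were -1.01 and -0.31. The decreases themselves were not smaller, since 143 of the 430 arm peaks below 0 lay 1 or more below DMSO. On the other chromosomes 6193 of 20347 did so, and on chr4 below the boundary 104 of 410. A change above 0 was found for 231 arm peaks (34.7%), against 14.6% on chr4 below the boundary and 13.6% on the other chromosomes. At the arm's own mix of mean levels, taken over both groups, the share on the other chromosomes was 21.3%. Of the 231 peaks, 113 were found only in the 5-AzaC table and may have been listed through high 5-AzaC levels. Over the 472 members that overlapped a peak of the TDCIPP table the share was 25%, against 9.81% of such peaks on the other chromosomes. The median level on the arm was 2.44 in 5-AzaC embryos and 2.90 in DMSO embryos, and on the other chromosomes it was 3.03 and 3.71. The median of all peaks in the table was itself shifted, at -0.70, so every change stands on a scale whose centre lies below 0.

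Under TDCIPP the arm peaks were centred slightly above the DMSO level while peaks elsewhere were below it. The median change on the arm was 0.165, with quartiles of -0.66 and 0.89, against -0.67 on chr4 below the boundary, -0.56 on the other chromosomes and -0.53 over all peaks. A change above 0 was found for 341 arm peaks (54.5%), against 19.5% on chr4 below the boundary and 25.8% on the other chromosomes. At the arm's own mix of mean levels the share on the other chromosomes was 30.1%. The sign of the arm's median depends on which peaks are counted. Over the 472 members that overlapped a peak of the other table it was -0.035, and over the 154 members found only in the TDCIPP table it was 0.635. Members found only there may have been listed through high TDCIPP levels, since the DMSO libraries are shared. Of the 472 overlapping members 48.1% had a change above 0, against 22.2% of such peaks on the other chromosomes. The arm's median was 0.07 with the boundary at 20 Mb and 0.08 without peaks in runs of 4 or more. The TDCIPP group has 2 libraries.

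In both comparisons the arm's median exceeded that of each of the 24 other chromosomes, whose medians ran from -0.72 to -0.65 under 5-AzaC and from -0.65 to -0.48 under TDCIPP. The spread was wider too. The interquartile range of the changes was 1.30 on the arm under 5-AzaC, against 0.63 to 0.76 on the other chromosomes. Under TDCIPP it was 1.55 on the arm, against 0.95 to 1.23. Spread also varied with level. The weakest of 5 classes of mean level held 39.5% of the arm's peaks under 5-AzaC and 18.6% of those on other chromosomes. In that class the interquartile ranges were 1.24 and 1.11, and in the strongest class they were 1.77 and 0.46.

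**Figure D1:**
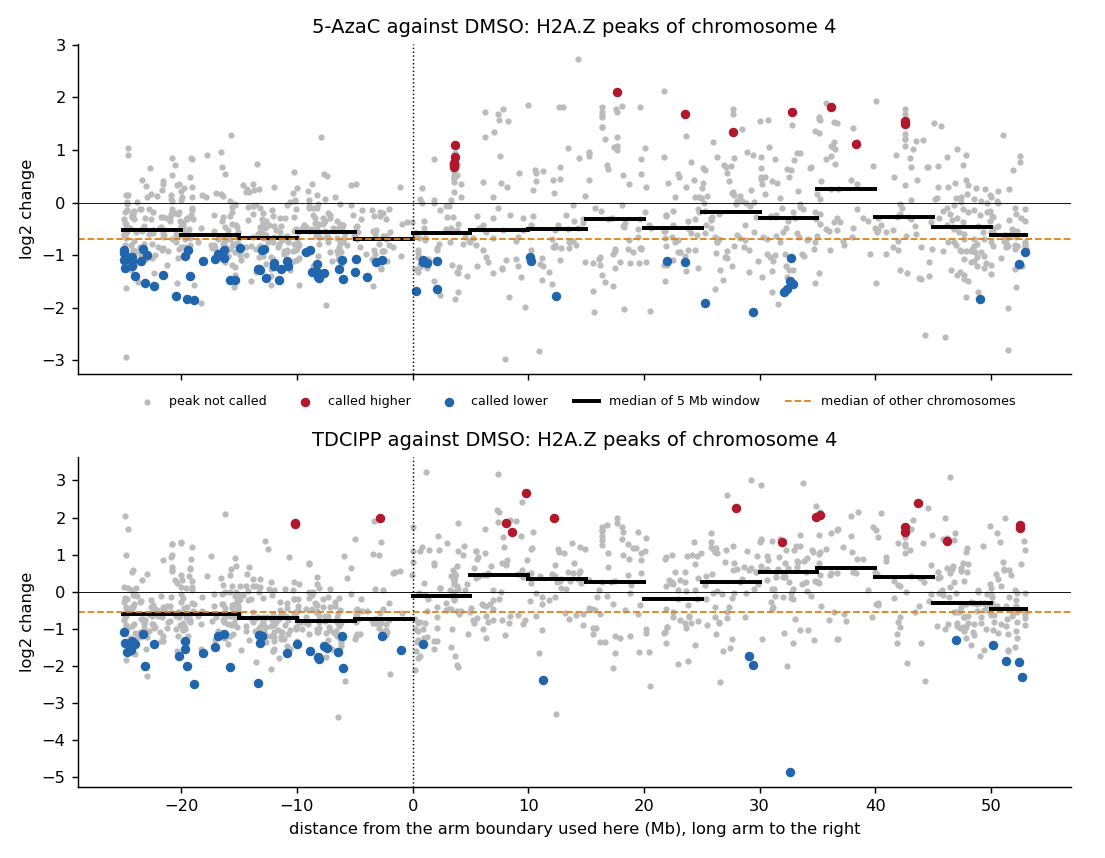
Log2 change of every peak on chr4 (vertical) against its distance from the 25 Mb boundary in Mb (horizontal), for 5-AzaC minus DMSO above and TDCIPP minus DMSO below, with members right of the dotted line. Red and blue points rose and fell at a deposited FDR under 0.05, and black bars are medians of 5 Mb windows. The dashed line is the median of the other chromosomes, at -0.69 under 5-AzaC and -0.56 under TDCIPP, which all 11 arm windows exceed.

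Summed on the linear scale, H2A.Z signal over the arm's peaks was 0.965 times the DMSO sum in 5-AzaC embryos, against 0.622 times on chr4 below the boundary and 0.655 times on the other chromosomes. In TDCIPP embryos the arm's sum was 1.13 times that of DMSO, against 0.651 and 0.759 times. The arm therefore held 2.55% of the signal over peaks of assembled chromosomes in 5-AzaC embryos and 1.74% in DMSO embryos, and 2.56% in TDCIPP embryos against 1.72% in DMSO embryos. These sums cover 531 kb of arm peaks in the 5-AzaC table, with a mean linear level of 11.7 in 5-AzaC embryos and 12.1 in DMSO embryos. They cover 509 kb in the TDCIPP table, with a mean of 14.1 in TDCIPP embryos and 12.4 in DMSO embryos. In 5-AzaC embryos the ratio was 1.20 over the 82 peaks between 25 and 30 Mb and 0.873 from 30 Mb on. In that first window 54 of the 82 peaks had a change below 0. Its 17 peaks in long runs, described further on, held 75.2% of the window's signal in 5-AzaC embryos and 56.7% in DMSO embryos, and the ratio over the other 65 was 0.689. In TDCIPP embryos the ratio was 1.00 between 25 and 30 Mb and 1.18 from 30 Mb on.

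All 11 arm windows had medians above that of the other chromosomes, but not every one lay beyond the bulk of windows there. In windows of 5 Mb, median changes under 5-AzaC were -0.58 in the first window from 25 Mb and -0.61 in the last, from 75 Mb. In the 9 windows between they ran from -0.52 to 0.26, with the highest from 60 Mb. Over 262 windows of other chromosomes the medians ran from -0.92 to -0.38, and 95% of them lay below -0.53. Of the 11 arm windows 9 were above that 95% mark, and 5 were above the highest window elsewhere. Over the 5 windows of chr4 below the boundary the medians lay between -0.69 and -0.52.

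Under TDCIPP the window medians were -0.125 in the first window and -0.30 and -0.475 in the last 2. From 30 to 70 Mb they lay between -0.21 and 0.645, again with the highest from 60 Mb. Of the 11 arm windows 7 had a median above 0, against 2 of 262 windows on other chromosomes. On 8 arm windows the median exceeded the 95% mark of the other windows, -0.19, but none exceeded their highest value of 1.13. The windows of chr4 below the boundary lay between -0.79 and -0.62.

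Position near a chromosome's end gives a further comparison. Within 5 Mb of the last peak the arm's median was -0.68 under 5-AzaC, against -0.64 at the same distance on the other chromosomes. Between 15 and 20 Mb from the end it was -0.06, against -0.71. Under TDCIPP the arm's median was -0.42 in the last 5 Mb, against -0.56, and 0.78 between 15 and 20 Mb from the end, against -0.58. Of the 5 Mb stretches within 50 Mb of the end, that from 15 to 20 Mb was the farthest from the other chromosomes in both comparisons. Nearness to them was not limited to the tip, since at 40 to 45 Mb from the end the arm's median under 5-AzaC was -0.69, against -0.70.

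**Figure D2:**
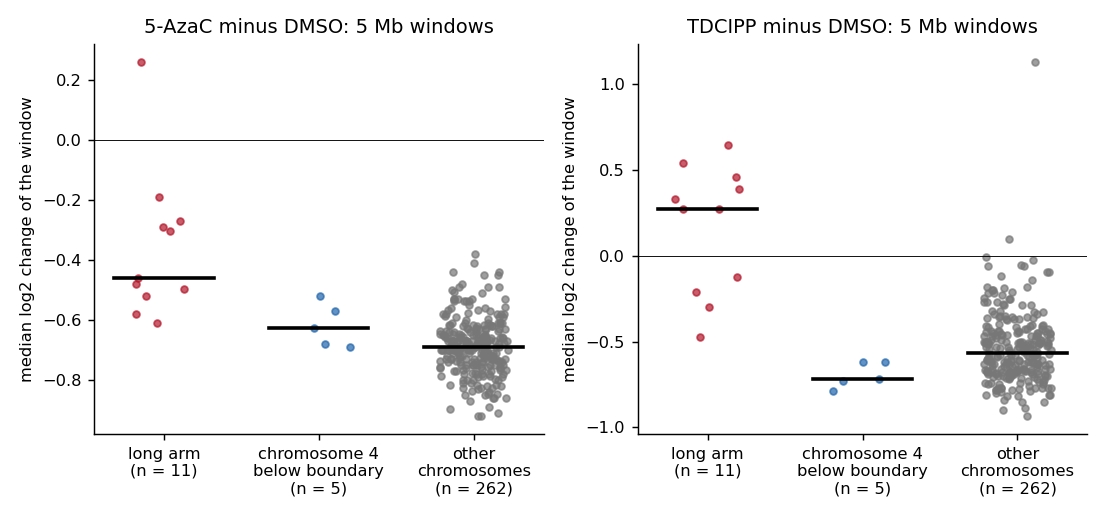
Median log2 change of each 5 Mb window, 1 point per window, on the long arm, on chr4 below the boundary and on the other chromosomes, for 5-AzaC minus DMSO and TDCIPP minus DMSO, with a bar at the median of the windows and a random horizontal offset. The arm's highest window is at 0.26 under 5-AzaC, above all 262 windows of other chromosomes, and at 0.645 under TDCIPP, where 1 window elsewhere is higher at 1.13.

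At the boundary the nearest members did not stand apart under 5-AzaC. The 3 members just inside, starting at 25167717, 25181188 and 25220537, had changes of -0.58, -0.62 and -1.26 in the authors' deposited table, and the 3 peaks just outside had -0.41, -0.37 and -0.37. Under TDCIPP the authors' deposited table gives 1.73, 1.09 and 0.81 just inside and -1.57, -0.59 and 0.44 just outside, of which only the change of -1.57 passed the FDR threshold. Those 3 inside peaks were found only in the TDCIPP table. The next 3 members, starting at 25167838, 25181188 and 25220537, were matched between the tables and had TDCIPP changes of -1.02, -0.73 and -2.12. The 92 and 87 peaks on the 18 alternate sequences of chr4 are not members, and their median changes were -0.775 under 5-AzaC and -0.41 under TDCIPP. Their interquartile ranges, 0.834 and 1.385, were also wider than on each of the 24 other chromosomes. A change above 0 was found for 14.1% of them under 5-AzaC and 39.1% under TDCIPP.

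By DMSO level, the weakest peaks had the highest median changes on the arm and elsewhere. The arm is rich in weak peaks, so the members were set against other peaks of like level. When all peaks were divided into 5 equal classes by DMSO level, 267 of the 665 arm peaks fell in the weakest class in the 5-AzaC table and 238 of 626 did so in the TDCIPP table. The median changes of the arm under 5-AzaC, from the weakest class to the strongest, were 0.10, -0.615, -0.69, -0.765 and -0.69, against -0.06, -0.55, -0.72, -0.79 and -0.90 on the other chromosomes. The arm differed most in the strongest class, where 20 of 67 arm peaks (29.9%) had a change above 0, against 3.26% elsewhere. Many of these 20 lay at a single place, the run chr4:28552335-28604336 described further on. Its 13 peaks had DMSO levels of 5.07 to 7.73, and all 13 had a change above 0. In classes 3 and 4 the medians were close to those elsewhere, yet 25.2% and 14.7% of arm peaks had a change above 0, against 5.12% and 2.08%.

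Under TDCIPP the arm was above the other chromosomes in all 5 classes of DMSO level. Its medians were 0.53, -0.15, -0.325, -0.125 and -0.245, against 0.21, -0.39, -0.60, -0.75 and -0.89. In the strongest class 26 of 66 arm peaks (39.4%) had a change above 0, against 12.2% elsewhere.

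The size of the arm's difference under 5-AzaC rests on how level is matched. Unmatched, its median was 0.27 above that of the other chromosomes. It was 0.19 above within bins of mean level and 0.03 above within bins of DMSO level. Under TDCIPP the difference was 0.725 unmatched, 0.56 within bins of mean level and 0.36 within bins of DMSO level. DMSO level enters the change itself, and mean level holds both groups, so neither matching is neutral. By mean level, the arm's medians under 5-AzaC were -0.11, -0.525, -0.76, -0.66 and 0.295 from the weakest of 5 classes to the strongest. On the other chromosomes these medians were -0.30, -0.57, -0.68, -0.76 and -0.85. In class 3 the arm's median was thus the lower one. The arm's strongest class includes the run of 13 peaks named above and peaks of other long runs described further on. Under TDCIPP the arm had 0.26, -0.15, 0.235, 0.26 and 0.26, against -0.18, -0.46, -0.57, -0.68 and -0.77 on the other chromosomes.

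**Figure D3:**
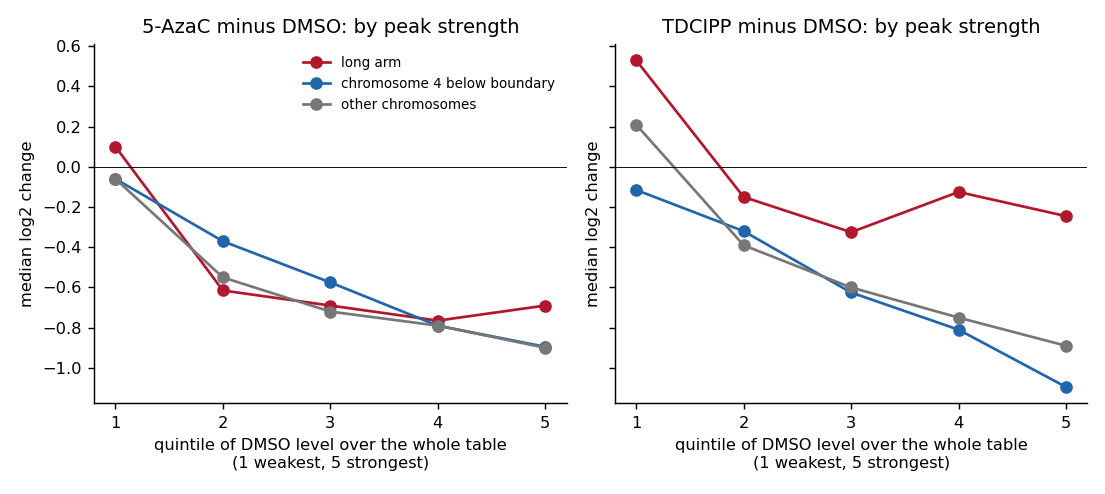
Median log2 change in 5 classes of DMSO level, from the weakest to the strongest, for arm peaks and for peaks of chr4 below the boundary and of other chromosomes. Under 5-AzaC the arm's median in the strongest class is -0.69, against -0.90 on other chromosomes, and under TDCIPP the arm's medians lie above both other sets in every class.

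Members in 1 table and not in the other were more frequent than elsewhere. Of the arm's peaks, 472 overlapped a peak of the other table by at least 1 bp, which is 71.0% of the 5-AzaC members and 75.4% of the TDCIPP members. On the other chromosomes the shares were 88.2% and 91.2%. The 193 members found only in the 5-AzaC table had a median change of 0.25 and the 472 matched members -0.56, against -0.15 and -0.73 on the other chromosomes. In the TDCIPP table the 154 unmatched members had a median of 0.635 and the matched ones -0.035, against 0.42 and -0.62 elsewhere. Unmatched members were weak, with median DMSO levels of 1.89 and 1.945, while the matched ones had 3.25 and 3.27. Both comparisons share the DMSO libraries, so a peak found in 1 table only may have been listed through its treated libraries. Such listing would favour a high change, so the medians of unmatched peaks cannot be read as an effect of treatment alone. How far it did so was not tested.

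A peak counts as having risen or fallen where its deposited FDR is under 0.05. Many weak peaks are listed at an FDR of 1 whatever their p-value, and the deposited FDR of the others is recovered to within 0.762% by a Benjamini-Hochberg adjustment over those below 1 alone, so shares are given of peaks with an FDR below 1. The tables do not state such a filter, and 1 member of the TDCIPP table has an FDR of 1 at a level where other peaks do not. Under 5-AzaC 299 members (45.0%) had an FDR below 1, against 69.0% of peaks on other chromosomes. Of these, 21 fell (7.02%), where the background over the table was 18.7%, and 14 rose (4.68%), where it was 0.45%. The highest share on another chromosome was 1.29%, on chromosome 10. At the arm's own mix of mean levels, 17.8% of peaks on other chromosomes fell and 0.483% rose. The other part of chr4 had 57 peaks that fell and 0 that rose in the authors' test, and 0 of its peaks had a positive change at an unadjusted p under 0.05.

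Under TDCIPP 264 members (42.2%) had an FDR below 1, against 60.8% on other chromosomes. Of these, 10 fell (3.79%), where the background was 9.81%, and 14 rose (5.30%), where it was 2.05%. Single chromosomes varied widely in the share that rose, and chromosomes 15 and 8 exceeded the arm with 10.5% and 5.61%. At the arm's mix of mean levels, 10.1% of peaks elsewhere fell and 1.91% rose. On chr4 below the boundary 36 peaks fell and 3 rose.

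Because the whole of each table is shifted below 0, the members were also tested approximately against the table's median change, with standard errors taken from the deposited p-values. Under 5-AzaC, 34 of 299 arm peaks then lay above the median and 0 below it, where the backgrounds were 1.22% and 0%. At a p under 0.05 in this test before adjustment, 72 of the 299 lay above and 2 below. On the other chromosomes 452 and 326 of 16291 peaks did so. Under TDCIPP 39 of 264 arm peaks lay above and 2 below, where the backgrounds were 4.58% and 0.71%. The split between higher and lower calls therefore depends on the centring, while the arm's share of higher calls was above the background either way.

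A pattern noticed after the values had been seen is that members standing close together under 5-AzaC had high values together. Peaks were joined into a run when the gap to the next was at most 10 kb. The 48 arm peaks in runs of 4 or more had a median change of 0.975, and 44 of them were above 0, while the 158 in runs of 2 or 3 had a median of -0.40 and the 459 lone peaks -0.51. On the other chromosomes the medians of these classes were -0.63, -0.70 and -0.68. Of the 14 members that rose, 9 lay in runs of 4 or more, which hold 7.22% of the arm's peaks. Increases were concentrated in long runs elsewhere too, since 29 of the 63 peaks that rose on other chromosomes lay in such runs, which hold 5.11% of the peaks there. Both shares are of all peaks, and stronger peaks more often had an FDR below 1. Median DMSO levels in long runs and in lone peaks were 3.775 and 2.75 on the arm, and 4.17 and 3.62 elsewhere. The runs' shares of peaks with an FDR below 1 were not computed, so both concentrations may be overstated. All peaks were above 0 in 7 of the 8 long runs on the arm, against 0 of 9 on chr4 below the boundary and 15 of 234 elsewhere. Among these 7, the runs chr4:40246580-40259649 and chr4:42634432-42654522 held 4 and 5 peaks in the 5-AzaC table. In the TDCIPP table each held 1, so their other peaks may have been listed through high 5-AzaC levels. How far such listing shaped the runs was not tested.

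Under TDCIPP the 32 arm peaks in runs of 4 or more had a median of 0.62, with 27 above 0, against -0.09 in such runs on other chromosomes. Of the 14 members that rose under TDCIPP 2 lay in these runs. All 32 run peaks had an FDR below 1, among 264 such members, so the 2 were near the runs' share of these. On other chromosomes 122 of the 256 peaks that rose lay in such runs, which hold 4.72% of all peaks there. The 127 peaks in runs of 2 or 3 had a median of 0.06 and the 467 lone peaks 0.09, against -0.59 and -0.58. The TDCIPP difference from other chromosomes was thus present in lone peaks as well. The median of a run was above 0 in 5 of 5 arm runs, against 2 of 9 on chr4 below the boundary and 68 of 209 elsewhere. Peaks of 1 run share their surroundings, and how reads from near-identical copies were assigned is not given in the sources used here.

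**Figure D4:**
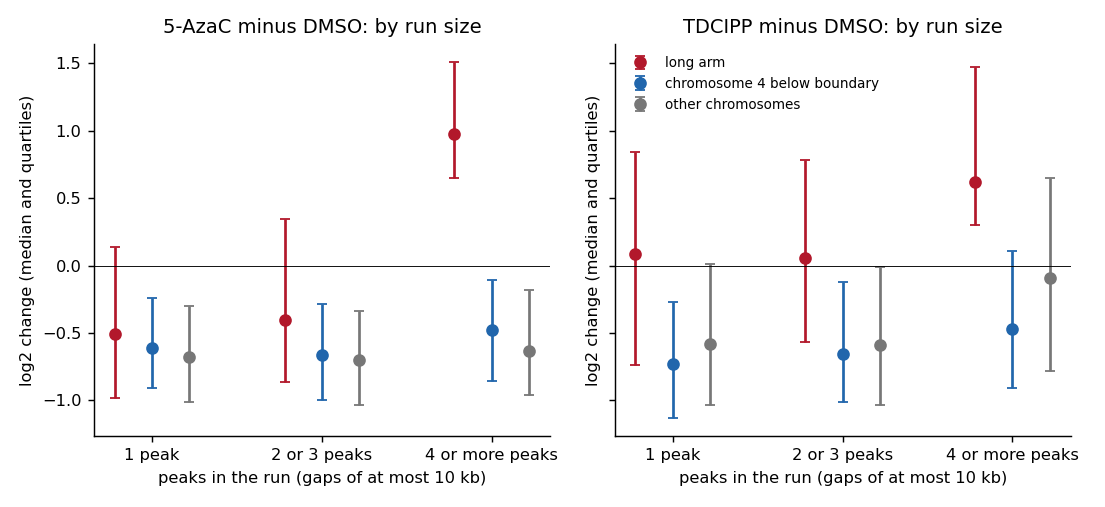
Log2 change by the number of peaks in a run, with points for the median and bars for the quartiles, on the arm, on chr4 below the boundary and on other chromosomes. Arm peaks in runs of 4 or more have medians of 0.975 under 5-AzaC and 0.62 under TDCIPP, against -0.63 and -0.09 on other chromosomes.

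The strongest peaks of the arm lay in 1 such run. It spans chr4:28552335-28604336 and holds 13 peaks in the 5-AzaC table, with changes from 0.20 to 0.75 and median levels of 7.08 in 5-AzaC embryos and 6.41 in DMSO embryos. Its strongest peak, chr4:28565799-28567310, had a level of 8.47 in 5-AzaC embryos and 7.73 in DMSO embryos in the authors' deposited table, a change of 0.74 (FDR 0.0195). The next, chr4:28568752-28570150, had 8.09 in 5-AzaC embryos and 7.37 in DMSO embryos, a change of 0.72 (FDR 0.0343) by the authors' deposited table. The 5 members with the highest DMSO level in the 5-AzaC table all lay here. A second run, chr4:28694340-28709765, held 4 peaks with changes from 0.78 to 1.09, and its first peak rose by 1.09 at an FDR of 0.0163. Within 100 kb gaps, 6 peaks of these runs rose together, by 0.67 to 1.09.

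The same stretch did not pass the test under TDCIPP. Its strongest peak had 7.92 in TDCIPP embryos and 7.71 in DMSO embryos in the authors' deposited table, a change of 0.20 at an FDR of 0.692. Of the 12 TDCIPP peaks in the first run 7 were above 0, with a median change of 0.195. In the second run all 4 were above 0, with a median of 0.45, and the lowest FDR was 0.441.

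Another run had evenly spaced peaks with nearly equal values. It spans chr4:41354211-41360930 and holds 5 peaks that start 1516 to 1611 bp after each other, each 414 to 482 bp wide. Their levels were 5.14, 5.11, 4.89, 5.12 and 5.23 in 5-AzaC embryos and 3.50, 3.38, 3.46, 3.45 and 3.79 in DMSO embryos in the authors' deposited table. The changes lay between 1.43 and 1.73. None passed the FDR threshold, 3 had a p-value under 0.05, and the lowest FDR was 0.0585. In TDCIPP embryos the levels of the 5 peaks were 4.84, 5.19, 5.13, 5.03 and 5.31, against 3.46, 3.44, 3.46, 3.39 and 3.82 in DMSO embryos, and the lowest FDR in the authors' deposited table was 0.154.

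A similar run at chr4:67568702-67587122 held 9 peaks in the 5-AzaC table, with a median spacing of 1566.5 bp between starts and 6 of 8 distances between 1400 and 1700 bp. Their levels ran from 4.84 to 5.55 in 5-AzaC embryos and from 3.22 to 3.85 in DMSO embryos. The changes lay between 1.08 and 1.78, and 2 of the peaks rose. In the TDCIPP table the stretch had 7 peaks with levels of 4.66 to 5.34 in TDCIPP embryos and 3.46 to 3.87 in DMSO embryos, and again 2 rose. The 2 that rose were the same in both comparisons. At chr4:67570300-67570709 the level was 4.85 in 5-AzaC embryos and 3.36 in DMSO embryos, a change of 1.50 at an FDR of 0.0352, and the overlapping TDCIPP peak had 5.20 and 3.46, a change of 1.74 at an FDR of 0.0426, in the authors' deposited tables. At chr4:67584219-67584695 it was 5.16 in 5-AzaC embryos and 3.61 in DMSO embryos, a change of 1.55 at an FDR of 0.0148, and the overlapping TDCIPP peak had 5.19 and 3.59, a change of 1.60 at an FDR of 0.0354.

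Values above DMSO without such regular spacing were found in the remaining runs. The run chr4:42634432-42654522 had 5 peaks with changes of 0.99 to 2.11 under 5-AzaC, of which 1 rose. Only 1 peak of the TDCIPP table overlapped this run. The run chr4:60169975-60194818 had 4 peaks with changes of 1.33 to 1.62 under 5-AzaC and a lowest FDR of 0.0508, and its 4 TDCIPP peaks had a median of 1.035. The run chr4:40246580-40259649 had 4 peaks with a median of 0.91 and no call, and again only 1 TDCIPP peak overlapped it. The run near the tip, chr4:77068951-77092992, was the exception, with 4 of 4 peaks below 0, a median change of -0.845 and no call.

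**Figure D5:**
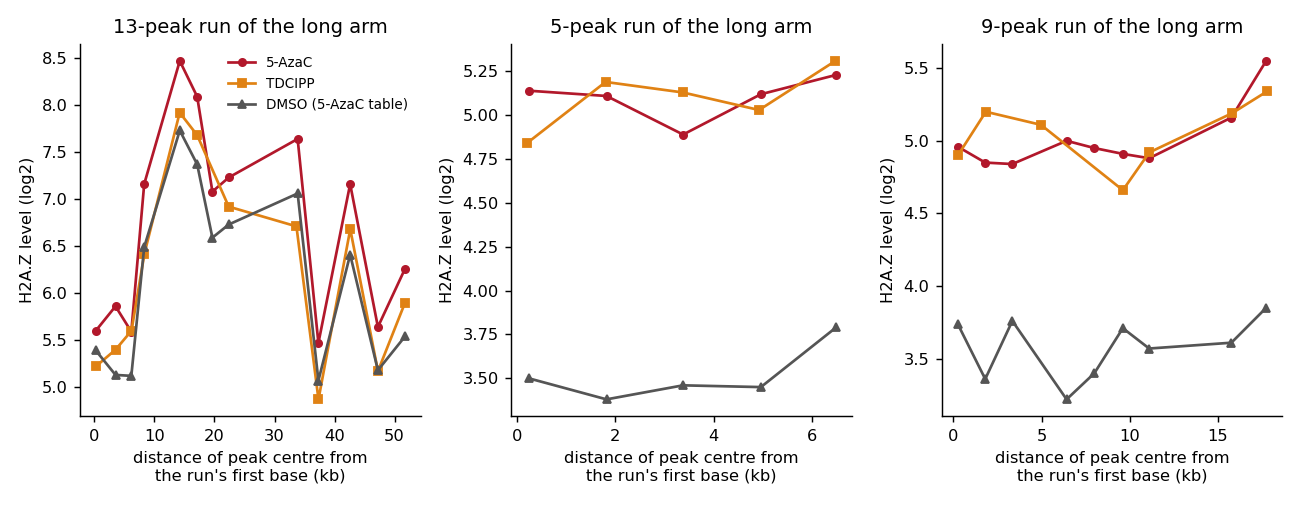
Log2 H2A.Z level of each peak in 3 runs of the arm, with 13, 5 and 9 peaks in the 5-AzaC table, against the distance of the peak's centre from the run's first base in kb, for 5-AzaC, TDCIPP and DMSO embryos (DMSO as in the 5-AzaC table). Each point is the pooled level of a group, and neighbouring peaks are not replicates. In the runs of 5 and 9 peaks the plotted 5-AzaC and TDCIPP levels lie above those of DMSO. In the run of 13 the TDCIPP levels lie close to those of DMSO.

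The called peaks with the largest changes were scattered along the arm. Larger changes among peaks not called reached 2.73 and -2.98 under 5-AzaC and 3.24 under TDCIPP. Among called peaks, the largest increase under 5-AzaC lay in one of the runs above, at chr4:42648452-42649901, with 4.47 in 5-AzaC embryos and 2.36 in DMSO embryos, a change of 2.11 (FDR 0.0142) by the authors' deposited table. That peak overlapped no peak of the TDCIPP table. Of the 14 members that rose under 5-AzaC, 4 were found only in the 5-AzaC table and may have been listed through high 5-AzaC levels. The 5 largest called increases ran from 1.55 to 2.11, and all had DMSO levels of 3.61 or less. The peak that rose at the lowest FDR, 0.00706, was chr4:63365107-63365446, with 6.84 in 5-AzaC embryos and 5.72 in DMSO embryos in the authors' deposited table. There the TDCIPP peak had 6.23 in TDCIPP embryos and 5.73 in DMSO embryos, at an FDR of 0.379.

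The largest called decrease under 5-AzaC was at chr4:54408592-54409157, with 1.98 in 5-AzaC embryos and 4.07 in DMSO embryos, a change of -2.09 (FDR 0.0113) by the authors' deposited table. Among the called decreases the 5 largest ran from -2.09 to -1.71. The 21 peaks that fell had DMSO levels from 3.47 to 6.31 and were spread from 25270732 to 77933034, close to the full length of the arm.

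Under TDCIPP the largest called increase was at chr4:34793057-34793871, with 4.60 in TDCIPP embryos and 1.95 in DMSO embryos, a change of 2.65 (FDR 0.00411) by the authors' deposited table. That peak overlapped no peak of the 5-AzaC table. Of the 14 members that rose under TDCIPP, 4 were found only in the TDCIPP table and may have been listed through high TDCIPP levels. The 5 largest called increases ran from 2.01 to 2.65. Near the tip 2 strong neighbours rose, chr4:77552965-77553977 to 6.51 in TDCIPP embryos against 4.70 in DMSO embryos (FDR 0.00516), and chr4:77564481-77565690 to 6.76 against 5.03 (FDR 0.00538), in the authors' deposited table. The overlapping 5-AzaC peaks had 5.74 in 5-AzaC embryos against 4.86 in DMSO embryos and 6.66 against 5.88, and neither passed the threshold (FDR 0.0733 and 0.0701). The overlapping peaks differ between the tables in width and in DMSO level.

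The largest called decrease under TDCIPP was at chr4:57642068-57643331, with -0.81 in TDCIPP embryos and 4.06 in DMSO embryos, a change of -4.87 (FDR 0.000726) by the authors' deposited table. That TDCIPP level is below 0.36, the lowest mean level over both groups of any peak in this comparison. The size of the change therefore rests on very little TDCIPP signal, from 2 libraries. Under 5-AzaC the same peak had 2.56 in 5-AzaC embryos and 4.06 in DMSO embryos, a change of -1.50 at an FDR of 0.044. A strong peak at chr4:36255617-36256373 fell to 3.61 in TDCIPP embryos, against 6.00 in DMSO embryos, at an FDR of 0.000376, while its 5-AzaC counterpart had 4.80 against 6.00 at an FDR of 0.107.

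In all, 4 members fell and 2 rose in both comparisons, and 0 were called in opposite directions. Besides the peaks already given, chr4:25910325-25912821 had 5.17 in 5-AzaC embryos and 6.31 in DMSO embryos (FDR 0.00459), and 4.88 in TDCIPP embryos against 6.31 in DMSO embryos (FDR 0.00514), in the authors' deposited tables. The member chr4:77448809-77450188 had 3.57 in 5-AzaC embryos and 4.73 in DMSO embryos (FDR 0.0367), and 2.82 in TDCIPP embryos against 4.72 in DMSO embryos (FDR 0.0176). The member at 54408592 had 2.09 in TDCIPP embryos against 4.07 in DMSO embryos (FDR 0.0438). Because the DMSO libraries are shared, these 6 peaks are not independent evidence across the comparisons.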

How the data were processed

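The deposited tables give, for each consensus peak, log2 levels of the treated and the DMSO group, a log2 change, a p-value and an FDR, per the file headers. Bowtie2, Picard, MACS2, deepTools and DiffBind are named, with no role or version, in the submitters' processing notes, as is GRCz11. How levels were normalized and how multi-mapping reads were handled is not given in the sources used here.

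Members were selected by coordinate. Calls used the deposited FDR under 0.05, and peaks at an FDR of 1 were taken as outside the adjustment, which was inferred from the values. Windows of 5 Mb with at least 20 peaks were summarised. An approximate test set each change against the table's median, with standard errors from deposited p-values. Its only check used simulated p-values built from the same relation that the test inverts. That check cannot show whether the standard errors hold for the deposited p-values. Level matching used 20 bins. Named peaks were the 5 largest changes called in each direction, the peaks called in both tables, the 5 strongest in DMSO and runs of at least 3 increases within 100 kb gaps. Other peaks were chosen after their values were seen. The long runs were added later. Members, lists and tests were chosen with earlier results of these data known. The labels call the libraries replicates, but do not say whether they came from separate cultures, so the deposited p-values may measure technical spread. Python 3.11.15, numpy 2.4.6, pandas 2.3.3 and scipy 1.17.1 were used.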

Additional observations from a re-analysis of the deposited data

How the results depend on the processing

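Under 58 alternatives the value stayed within 1.5 times the reported one, a limit set because medians over peaks have no replicate spread. Under 27 alternatives it moved beyond that limit, and under 1 its sign reversed. With the arm taken from 30 Mb, 8 members rose under 5-AzaC. The counts of calls move with the threshold. Under 5-AzaC, 1 member fell and 1 rose at an FDR under 0.01, and 57 fell and 32 rose at an FDR under 0.1. Under TDCIPP these counts were 3 and 3, then 22 and 29. Against the table's median, 0 members lay lower and 34 higher under 5-AzaC, and 2 lower and 39 higher under TDCIPP. With adjustment over all peaks 7 members rose under 5-AzaC, and with a change of at least 1 there were 9. Without the runs of 4 or more, an alternative chosen after seeing the data, 5 rose.

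The 5-AzaC median of -0.42 became -0.56 for peaks above the median level, -0.57 for peaks at an FDR below 1, -0.25 as a mean and -0.052 as a summed ratio. Over matched peaks only, also chosen after seeing the data, it was -0.56, and the TDCIPP median turned from 0.165 to -0.035. The TDCIPP median was 0.28 for peaks at an FDR below 1, 0.07 from 20 Mb and 0.08 without the runs. The arm's difference under 5-AzaC, 0.27, was 0.19 within mean-level bins, 0.034 within DMSO-level bins and 0.17 over matched peaks. Under TDCIPP it was 0.56, 0.36 and, for peaks above the median level, 0.91, and 0.835 against chr4 below the boundary. Peaks above the median level numbered 3.87 and 4.11 per Mb. Identical coordinates matched 81 members. The cause of these shifts was not tested.

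No paired analysis was possible because only 1 value per group is deposited, and no fit without a replicate was run for the same lack of library values. Alternatives on annotated start sites were not run. Depth per library is unknown, and 45.0% of 5-AzaC members had an FDR below 1.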
